A study of Canis lupus familiaris with 28 samples.

Results

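The 12q13-15 amplicon of human sarcomas is a stretch of chromosome 12 that holds the cell cycle kinase gene *CDK4* at one end and the p53 inhibitor gene *MDM2* at the other. Its neighbor genes were followed here in canine histiocytic sarcoma (HS), an aggressive cancer of macrophage and dendritic cell lineage. The list held 10 genes, and 8 of them were paired with an Ensembl identifier in the study's supplementary tables. These 8 genes, of 32704 in the count files, were *GLI1* (ENSCAFG00000000223), *OS9* (ENSCAFG00000000259), *TSPAN31* (ENSCAFG00000000278), *CDK4* (ENSCAFG00000000280), *MDM2* (ENSCAFG00000000418), *CPM* (ENSCAFG00000000420), *YEATS4* (ENSCAFG00000000428) and *FRS2* (ENSCAFG00000000431). *DDIT3* and *HMGA2* were not paired and were not analysed here.

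In well-differentiated and dedifferentiated liposarcoma of humans, extra copies of this region carry *CDK4* and *MDM2* together, and neighbors that lie on the same extra copies are often overexpressed with them. CDK4 drives cells through the G1 phase of the cell cycle by phosphorylating RB1, and MDM2 marks p53 for degradation. An amplicon is read from DNA, and RNA levels such as those below do not measure copy number. In the RefSeq gene table of the dog the 8 genes lay on a single chromosome in the same order as above. *TSPAN31* and *CDK4* were direct neighbors, as were *MDM2* and *CPM*, and *YEATS4* and *FRS2*. Only *AGAP2* lay between *OS9* and *TSPAN31*.

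RNA was sequenced from tumors of 18 Bernese Mountain Dogs, 15 of them labelled HS and 3 labelled hemophagocytic histiocytic sarcoma (HHS), a subtype in which tumor cells engulf blood cells. The tumors came from the lung, liver, spleen, thorax, a lymph node, the shoulder and the leg, and the study estimated the tumor tissue in each by histopathology. The controls were the blood of 3 unaffected Bernese Mountain Dogs and 1 sample each of spleen, lung and liver from German Shepherd dogs. The HS cell lines BD and OD, from Bernese Mountain Dogs, and PJ, from a Rottweiler, were sequenced as 1 library each, beside DC3F9, a dendritic cell strain grown from the blood monocytes of a mongrel dog. No tumor, line or control carried a treatment in the labels. The study differentiated the monocytes of DC3F9 with the cytokines GM-CSF and IL-4, and its label marks the cells as unstimulated.

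The tumor libraries held 99701394 to 171815073 counts, the control libraries 133524755 to 180801439 and the libraries of cultured cells 82007857 to 131518875. Levels are given as counts for every 1000000 counts of a library (cpm, in lower case), while *CPM* in capitals is the carboxypeptidase M gene. Fold changes (log2FC) and p-values came from edgeR's quasi-likelihood test with TMM factors, which rescale each library by the bulk of its genes. In the labels the 3 blood libraries shared a name prefix of their own, and all tumors shared theirs with the spleen, lung and liver. What the prefix stands for is not said there. Any batch marked by the prefix, the breed and the tissue of the controls cannot be told apart. As in the study, the liver control was left out of the main comparison. Of the tumors, HS14, HS27, HS29 and HS36 stood apart with TMM factors of 0.746 to 0.820, while the other 14 had factors of 0.964 to 1.20. Where leaving out these 4 libraries changed a call or a relation, both values are given. Sums of 7 myeloid marker genes were 2019 to 25890 cpm in the tumors and 2759 in DC3F9, against 723 to 1355 in the HS lines. The blood controls held 13861 to 18094 cpm, the spleen 8643, the lung 2239 and the liver 331. *DLA-DRA*, an MHC class II gene, carried 1580 cpm of the sum in DC3F9. The other 6 genes summed to 1178 there, to 718 to 1259 in the lines and to 1000 to 8337 in the tumors. Without *DLA-DRA* the lines thus overlapped the tumors and DC3F9. All 7 were paired with an identifier.

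*CDK4* was higher in most tumors than in any control. Its lowest, median and highest levels in the 18 tumors were 93.6, 184 and 389 cpm, in HS29 and HS14 at the ends. Blood controls 1, 2 and 3, given in this order throughout, held 29.4, 38.2 and 60.7 cpm, the spleen control 122, the lung control 114 and the liver control 19.5. All tumors but HS29, HS39 and HS46 lay above every control. The log2FC of the 18 tumors against the 5 controls was 1.67 (SE 0.38), and its adjusted p of 0.00251 missed the cutoff of 0.0005 used for this comparison. DESeq2, which called 8.86% of all genes, called *CDK4* too (adjusted p = 4.68e-05). Without HS14, HS27, HS29 and HS36 the log2FC was 1.44 (adjusted p = 0.00308, edgeR), under the fold cutoff of 1.5 on the log2 scale. The spleen and lung controls are 1 library each and share the name prefix of the tumors but not their breed. With only these as controls the log2FC was 1.02 (SE 0.51, adjusted p = 0.229, edgeR). Against blood alone it was 2.32 (adjusted p = 0.000731, edgeR). Summed levels of 9 proliferation genes were 185 to 597 cpm in the tumors, 225 to 312 in blood, 142 in the lung control and 164 in the spleen control. *LMNB1*, a nuclear lamina gene, alone gave 182 to 262 cpm of the sums in blood. Without it, a choice made after its values were seen, the sums of the other 8 genes were 114 to 392 cpm in the tumors, 36.5 to 79.3 in blood, 61.9 in the lung and 80.7 in the spleen control, without overlap. Taken singly, 4 of the 9 genes were higher in all tumors than in all blood samples, and 5 overlapped. The part of these genes in the *CDK4* difference was not tested.

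*TSPAN31*, a tetraspanin gene directly beside *CDK4*, did not follow it in the comparison with controls. It was at 10.6, 35.2 and 79.7 cpm (lowest, median and highest) in the tumors, with HS29 lowest and HS37 highest. Blood held 22.3, 25.2 and 28.4 cpm, while the spleen and lung controls held 53.2 and 63.5. Only HS14 and HS37 lay above the spleen. The log2FC was 0.16 (SE 0.30, adjusted p = 0.71, edgeR), and it was -0.37 against spleen and lung alone. How the counting treated strand is not given in the sources used here, so reads where neighboring genes overlap could not be assigned with certainty.

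*OS9* encodes a lectin that hands misfolded glycoproteins to degradation at the endoplasmic reticulum. Its level was 216, 309 and 566 cpm in the tumors, where HS14 and HS37 (562 cpm) were the highest. The blood controls reached 465, 420 and 341 cpm, inside the range of the tumors. The spleen and lung controls, at 172 and 217, lay at or under the low end of the tumors. The log2FC against the 5 controls was 0.20 (SE 0.30, adjusted p = 0.658, edgeR).

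*GLI1*, the transcription factor at the end of Hedgehog signaling, was the only gene of the 8 that was called, and it was lower in tumors. The tumors held 0.644, 1.75 and 5.15 cpm at the lowest, median and highest. Blood held 21.1, 20.7 and 7.80 cpm, against 1.5 in the spleen, 4.45 in the lung and 2.56 in the liver control. All tumors were below all blood samples, while the spleen, lung and liver controls fell inside the range of the tumors. The log2FC was -2.54 (SE 0.43, adjusted p = 0.000215, edgeR). Across all genes tested in this comparison, 1.91% were called lower and 0.865% higher, and 1 call among 8 genes is too few to read against those shares. Against spleen and lung alone the log2FC was -0.40 (adjusted p = 0.725, edgeR), and against blood alone it was -3.14 (adjusted p = 4.7e-06, edgeR). Without HS14, HS27, HS29 and HS36 the adjusted p was 0.000813, short of the cutoff. Leaving out blood control 1 or 2 gave adjusted p of 0.00234 and 0.00281, edgeR. Sums of 6 T and NK cell marker genes were 944 to 1430 cpm in blood, 38.6 to 330 in tumors, 295 in the spleen and 66.9 in the lung control. None of the 6 was at 0 in blood. Their part in the difference was not tested, and in bulk RNA fewer cells of a type and less RNA per cell cannot be told apart.

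*MDM2* was at 36.0, 109 and 205 cpm in the tumors. HS4 was the highest. Blood held 49.6, 81.2 and 91.6 cpm, the spleen 97.5, the lung 110 and the liver 29.9, so the groups overlapped. The log2FC of 0.42 (SE 0.29) was not called (adjusted p = 0.284, edgeR). Within the tumors, HS14, HS27, HS29 and HS36 held 36.0 to 54.9 cpm of *MDM2* and the other 14 held 69.5 to 205, without overlap. With the TMM factors applied they overlapped, as HS51 (5.85 log2 cpm) lay below HS27 (6.06) and HS36 (6.07). No tumor was more than 1 log2 unit above the tumor median.

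*CPM* encodes carboxypeptidase M, a membrane enzyme that rises as monocytes become macrophages. Its level ranged 52.5-fold over the tumors, at 1.93, 22.9 and 101 cpm. HS51, from the spleen, was lowest, and HS48, from the lung, was highest. Blood held 8.49, 5.51 and 10.0 cpm, the spleen 6.92, the liver 0.194 and the lung 66.9. The log2FC was 0.94 (SE 0.73, adjusted p = 0.346, edgeR), and it was 2.13 (adjusted p = 0.0521, edgeR) without the lung control. The standard deviation of *CPM* over the tumors, 1.54 on the log2 scale, was above that of 75% of tested genes, while *MDM2* beside it, at 0.59, was above only 19.5%.

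*YEATS4*, which encodes a chromatin reader of acetylated histones, varied little, and its tumors leaned upward. It was at 13.2, 19.9 and 34.1 cpm in the tumors, against 9.88, 13.2 and 15.8 in blood, 12.3 in the spleen, 14.6 in the lung and 6.62 in the liver. Only HS48 and HS51 lay under the highest control. The log2FC was 0.87 (SE 0.25, adjusted p = 0.0131, edgeR), below the fold cutoff of 1.5 and short of the p cutoff of 0.0005. In this comparison 13% of tested genes were higher in tumors at an adjusted p under 0.05, and 2 of the 8 genes, *CDK4* and *YEATS4*, were among them. Its log2FC stayed between 0.70 and 0.95 over the other sets of samples and the other normalizations, with an adjusted p of 0.145 (edgeR) against spleen and lung. The levels of each of the 8 genes overlapped between the 18 tumors and the 5 controls, as they did for most genes, since 1.72% of tested genes were higher and 0.932% lower without overlap.

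*FRS2*, the adaptor that links fibroblast growth factor receptors to RAS signaling, was low in 4 of the tumors. Its lowest, median and highest levels were 0.160, 3.59 and 15.8 cpm, a 98.3-fold range, with the HHS tumor HS53 highest. Blood held 6.85, 4.11 and 6.63 cpm, the spleen 8.45, the lung 13.8 and the liver 4.18. The log2FC was -0.94 (SE 0.57, adjusted p = 0.225, edgeR). The tumors below 1 cpm were exactly HS14, HS27, HS29 and HS36, at 0.160 to 0.836, and the other 14 held 1.59 to 15.8. Without these 4 tumors the log2FC was -0.67 (adjusted p = 0.248, edgeR). The low *FRS2* and low *MDM2* of these tumors moved with their library factors, and what part that has in them was not tested.

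**Figure D1:**
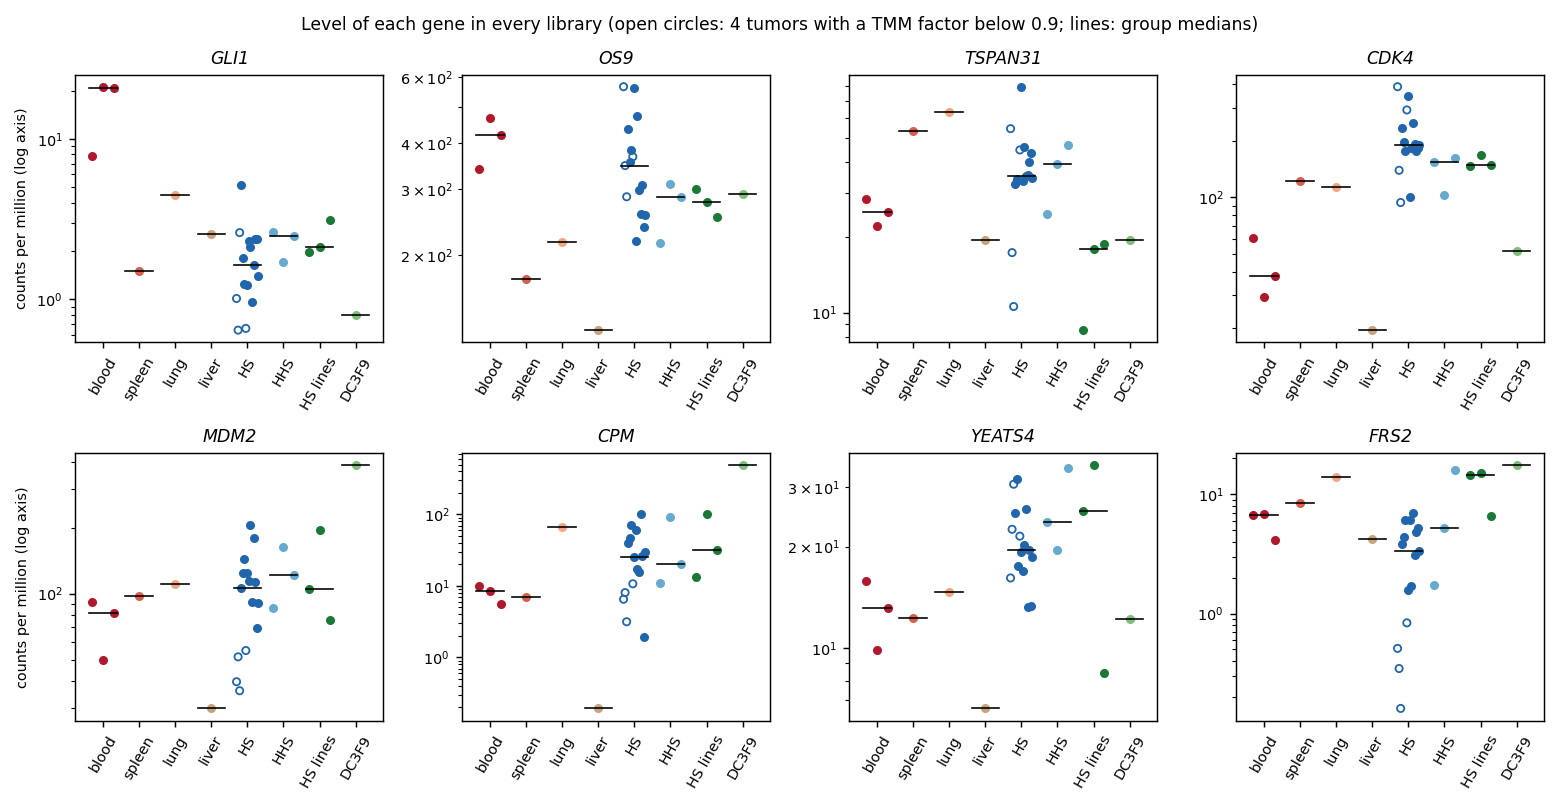
Level in cpm (log axis) of the 8 genes in each library, by group, where each point is 1 library, a line marks the group median and open circles are HS14, HS27, HS29 and HS36. The open circles are the 4 lowest tumors for *FRS2* (0.160 to 0.836) and for *MDM2* (36.0 to 54.9), the 3 blood samples top *GLI1*, and *CDK4* lies above the blood samples in all tumors.

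Whether neighbors rise together in single tumors was asked by setting each tumor against the median of the 18 tumors. A gene was counted as raised in a tumor when it exceeded that median by more than 1 log2 unit, a doubling, on the TMM scale. Of the 144 gene and tumor values, 13 were raised (9.03%), against 15.6% of all values of the 19430 tested genes. In 8 tumors no member was raised, in 8 tumors 1 was, and in 2 tumors more than 1 was. In no tumor was any of the 8 genes raised on the *CDK4* side together with any of the 8 on the *MDM2* side. Other genes of the region were not part of this count.

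HS14, a tumor of the thorax, had the most. *CDK4* was 1.55 log2 units above the tumor median there, *OS9* 1.23 and *TSPAN31* 1.04. *GLI1* in the same tumor was at -0.36, *MDM2* at -0.95, *CPM* at -1.29 and *FRS2* at -2.31. Of 52 tested genes between *GLI1* and *CNOT2*, 13 were raised in HS14 (25%), against 15% of all tested genes in that library. They included an unbroken run of *TSPAN31*, *CDK4*, *CYP27B1* and *METTL1*. *CYP27B1*, which activates vitamin D, was at 1.49, and *METTL1*, a tRNA methyltransferase gene, was at 1.84. The others were *DCTN2* (1.22), *PIP4K2C* (1.36), *ARHGEF25* (1.17), *B4GALNT1* (1.26), *PPM1H* (1.46), *C10H12orf56* (1.14), *TBC1D30* (1.97) and *LYZ* (2.83). *AGAP2*, which lies between *OS9* and *TSPAN31*, was at -2.85 in this tumor. Another 11 of the 52 genes lay more than 1 log2 unit below the median. HS14 was 1 of the 4 tumors with a low TMM factor, and on raw cpm without that factor *CDK4* (1.08) was the only one of the 8 genes above 1, with *OS9* at 0.87 and *TSPAN31* at 0.62. On that scale 7 of the 52 region genes were raised in HS14 (13.5%, against 9.1% of all tested genes), and the run of *CDK4*, *CYP27B1* and *METTL1* was among them.

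HS37, also a tumor of the thorax, was the other tumor with more than 1 member raised. *TSPAN31* was 1.20 and *CDK4* 1.01 above the median, with *OS9* at 0.83, *MDM2* at 0.31 and *CPM* at 0.28. Without the TMM factor, *TSPAN31* was at 1.18 and *CDK4* at 0.92. In HS37, 6 of 52 region genes were raised (11.5%), close to the 11.1% of all tested genes. HS36, a tumor of the liver, had *CDK4* at 1.00 above the median with *TSPAN31* at 0.62 and *OS9* at 0.47. It held another of the low library factors, and without it *CDK4* was at 0.67. Of all tested genes, 14.5% were raised in HS36.

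On the *MDM2* side, *CPM* was raised alone in HS34 (1.10), HS35 (1.51), HS39 (1.47), HS46 (2.18) and HS48 (2.27). Its neighbor *MDM2* was above the median in the same 5 tumors, but by less, from 0.10 in HS39 to 0.82 in HS48. *FRS2* was raised in HS53 (2.01) while *YEATS4* beside it was at 0.53. *GLI1* was raised in HS33 (1.43). Of all tested genes, 13.7% were raised in HS34, 12.6% in HS35, 17.1% in HS39, 13.1% in HS46, 12.7% in HS48, 18% in HS53 and 12.4% in HS33. HS4, which had the highest *MDM2*, was at 0.92 above the tumor median for *MDM2*, and the listed genes before it in the region, *NUP107* and *MDM1*, were at 0.85 and 2.65. *CPM* in HS4 was at -0.38. *NUP107* and *MDM1* were named after their values were seen.

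Across the tumors, 1 to 13 of the 52 region genes were raised per tumor, with a median of 4.5. The longest unbroken run of raised genes held 4 genes, and in 2 of 18 tumors, HS14 and HS37, the share of raised region genes was above that of all tested genes. Without TMM factors the tumors with a share above that of all tested genes were HS14, HS35 (19.2% against 18%) and HS39 (19.2% against 18.3%), while HS37 lay below it (7.69% against 10.8%). Summed over tumors, 9.94% of region values were raised, against 15.6% of all values.

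**Figure D2:**
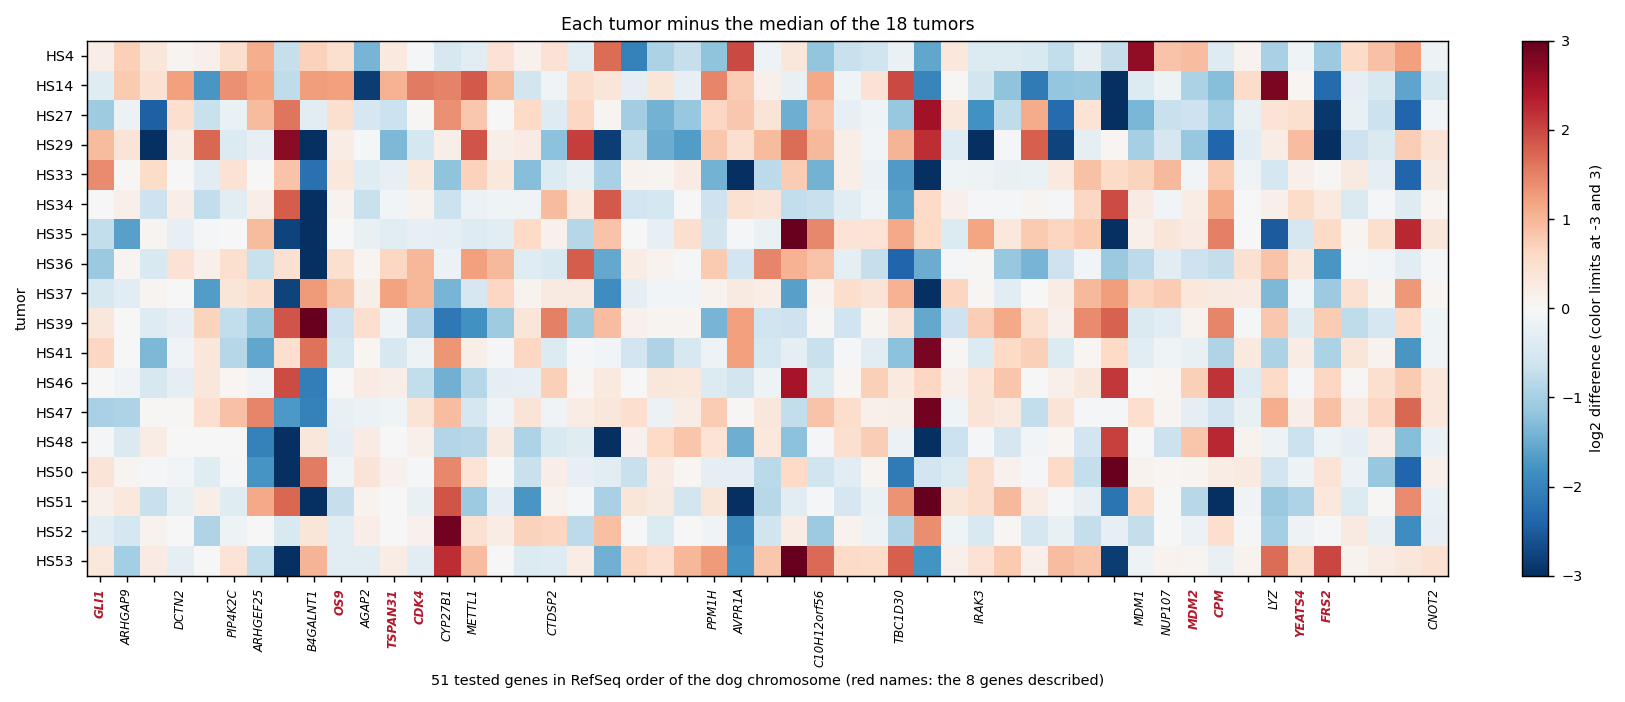
Log2 difference of each tumor (rows) from the median of the 18 tumors for 51 of the 52 tested genes in RefSeq order (columns, named where the text names them), red above and blue below, with the color limits at -3 and 3. HS14 shows red squares for *OS9*, *TSPAN31*, *CDK4*, *CYP27B1* and *METTL1* next to a blue *AGAP2*, and no row is red from the *CDK4* side to the *MDM2* side.

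Levels of the 8 genes were then compared in pairs over the 18 tumors, which share a name prefix. Among 28 pairs, *MDM2* and *CPM* had the strongest relation, with Pearson r = 0.78 (permutation p = 0.00011, adjusted over the pairs 0.00308) and Spearman rho = 0.82 (permutation p = 0.00011, adjusted 0.00308). Without HS29 and HS14, the tumors farthest from the median of *MDM2*, r was 0.73. The median rho of *MDM2* with all tested genes was 0.024, and 95% of them lay under 0.49. Without HS14, HS27, HS29 and HS36, r was 0.71 (permutation p = 0.00474, adjusted 0.133) and rho was 0.63 (permutation p = 0.0183, adjusted 0.425), so the relation kept its direction and missed the adjusted threshold over 14 tumors.

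*OS9* and *CDK4* had r = 0.72 (permutation p = 0.00085, adjusted 0.0119) but rho = 0.55 (permutation p = 0.0199, adjusted 0.186). Without HS14 and HS37 r fell to 0.42, so this relation rests in good part on those tumors. Without the 4 tumors of low library factor it had r = 0.61 (permutation p = 0.0205, adjusted 0.192) and rho = 0.50 (permutation p = 0.0722, adjusted 0.505). *TSPAN31* and *CDK4*, the direct neighbors, had r = 0.66 (permutation p = 0.00344, adjusted 0.0321) and rho = 0.40 (permutation p = 0.102, adjusted 0.357). Without the 4 tumors of low library factor their r was 0.48 and their rho 0.073. *OS9* and *FRS2* had the lowest rho, -0.65 (permutation p = 0.00428, adjusted 0.0599), and -0.39 without the 4 tumors.

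No relation was detected between *CDK4* and *MDM2* themselves, with r = -0.26 (permutation p = 0.299, adjusted 0.523) and rho = -0.13 (permutation p = 0.604, adjusted 0.806). The 16 pairs that joined a gene of the *CDK4* side to one of the *MDM2* side had rho from -0.65 to 0.35 with a median of 0.0083, and the 12 pairs within a side had rho from -0.51 to 0.82 with a median of 0. Without the 4 tumors of low library factor the 16 pairs across sides had rho from -0.51 to 0.59, where *OS9* and *MDM2* were the highest (permutation p = 0.0304, adjusted 0.425), and a median of -0.051. *YEATS4* and *FRS2*, also direct neighbors, had rho = -0.29 over the 18 tumors and 0.099 without the 4. Leaving out the 4 tumors also took the rho of *MDM2* and *FRS2* from 0.35 to -0.30. That of *CPM* and *FRS2* went from 0.49 to 0.099. Over the 52 region genes, the 51 pairs of tested genes next to each other in the list had a median rho of 0.17, against 0.024 for all 1326 pairs of region genes and 0.0021 for all pairs of tested genes. These are descriptions over 18 libraries that differ in depth and in TMM factor, and what part that has in them was not tested.

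**Figure D3:**
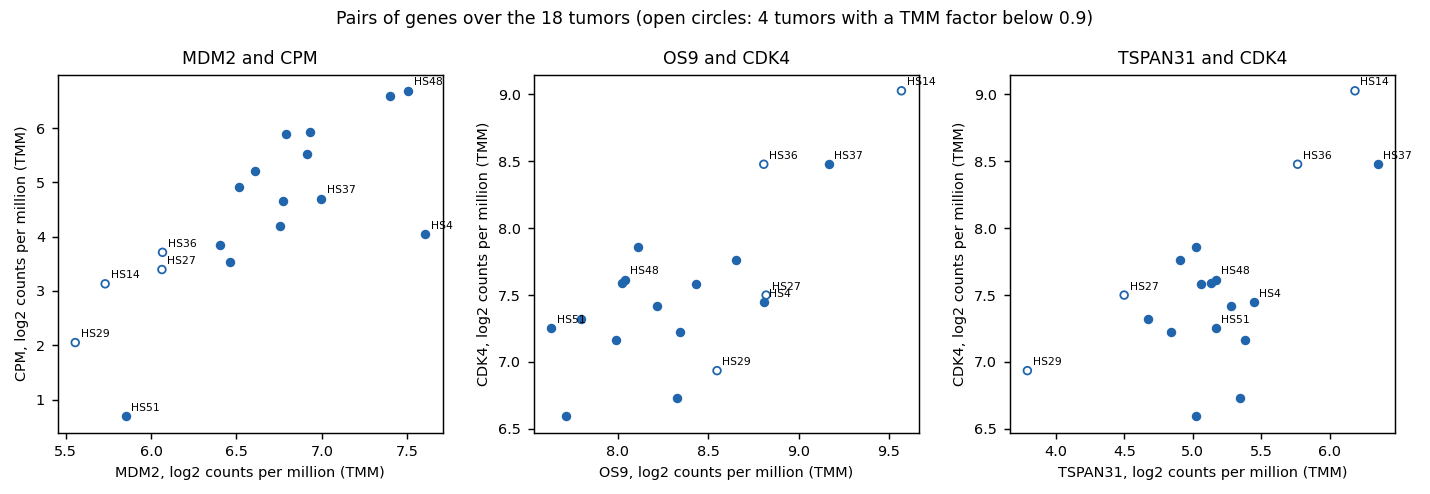
Log2 cpm with TMM factors of *MDM2* and *CPM*, *OS9* and *CDK4*, and *TSPAN31* and *CDK4*, where each point is 1 of 18 tumors and open circles are HS14, HS27, HS29 and HS36. *MDM2* and *CPM* rise together (rho = 0.82), and HS14 and HS37 sit at the upper right of the *OS9* and *CDK4* plot.

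Of 997 genes with a name and a tested level, those with a pattern over the 18 tumors most like that of *CDK4* were *ATP5F1B* (rho = 0.87), *TCP11* (rho = 0.80) and *SHMT2* (rho = 0.79). Those most like *MDM2* were its neighbor *CPM* (rho = 0.82), *SKIV2L* (rho = 0.78) and *DAAM2* (rho = 0.73). *ATP5F1B* (ENSCAFG00000000136) and *SHMT2* (ENSCAFG00000000195) were not in the region list, which ran only from *GLI1* to *CNOT2*. Their distance from *CDK4* was not examined, so they too may be neighbors of it on the same chromosome. Only genes named in the supplementary tables could enter this ranking, 997 of the 19430 tested. How these are spread over the chromosomes was not examined.

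In the cell lines, *CDK4* and *GLI1* were higher in all 3 lines than in DC3F9, and 5 of the 8 genes were lower in all 3. *CDK4* was at 146 cpm in BD, 167 in OD and 148 in PJ, against 51.9 in DC3F9. *MDM2* was at 105 in BD, 195 in OD and 75.9 in PJ, against 386 in DC3F9. *CPM* was at 13.3 in BD, 102 in OD and 32.0 in PJ, against 492 in DC3F9. OD was the highest of the 3 lines in both neighbors.

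*TSPAN31* was at 8.52 cpm in BD, 18.0 in OD and 18.7 in PJ, against 19.4 in DC3F9. *FRS2* was at 14.5, 14.9 and 6.58 in BD, OD and PJ, against 17.5. *OS9* was at 302, 277 and 253 in BD, OD and PJ, against 291, so its separation appeared only after the TMM factors. *GLI1* was at 1.98, 2.14 and 3.13 cpm, against 0.805. *YEATS4* was at 25.6, 34.9 and 8.44 cpm, on both sides of the 12.2 of DC3F9.

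The log2FC of the lines against DC3F9 was -3.79 (SE 1.04) for *CPM*, -2.09 (SE 0.58) for *MDM2* and 1.10 (SE 0.38) for *CDK4*, with adjusted p of 0.221, 0.224 and 0.287 by edgeR. None of the 8 genes was called, and edgeR called 0 of 18121 genes, where 15.4% had an unadjusted p under 0.05. These 3 genes were among them. Without OD the log2FC of *CPM* was -4.92 (adjusted p = 0.264, edgeR). DESeq2 called *CPM* (adjusted p = 0.028) and 9.91% of all genes. Of tested genes, 33.2% were higher and 30.2% lower in all 3 lines than in DC3F9, so a lack of overlap was common here. DC3F9 is 1 library, assumed to vary like the lines, and the proliferation genes summed to 605 to 756 cpm in the lines and 91.3 in DC3F9.

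Between the subtypes, no gene of the 8 was called. The HHS tumors HS41, HS46 and HS53 held 155, 102 and 162 cpm of *CDK4*, with a log2FC against the 15 HS tumors of -0.70 (SE 0.41, adjusted p = 0.943, edgeR). They held 85.7, 163 and 122 of *MDM2* (log2FC 0.25, SE 0.37, adjusted p = 0.959, edgeR). *FRS2* was at 1.74, 5.16 and 15.8 cpm in the same tumors (log2FC 1.19, SE 0.72, adjusted p = 0.943, edgeR). Without HS53 its log2FC was 0.21. The groups overlapped in each of the 8 genes. Over all tested genes, 0.0676% were higher and 0.0104% lower in HHS without overlap. EdgeR called 0 of 19853 genes in this comparison, and 4.01% had an unadjusted p under 0.05, with none of the 8 genes among them. DESeq2 called 1 gene (0.00504%), which was not one of the 8.

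**Figure D4:**
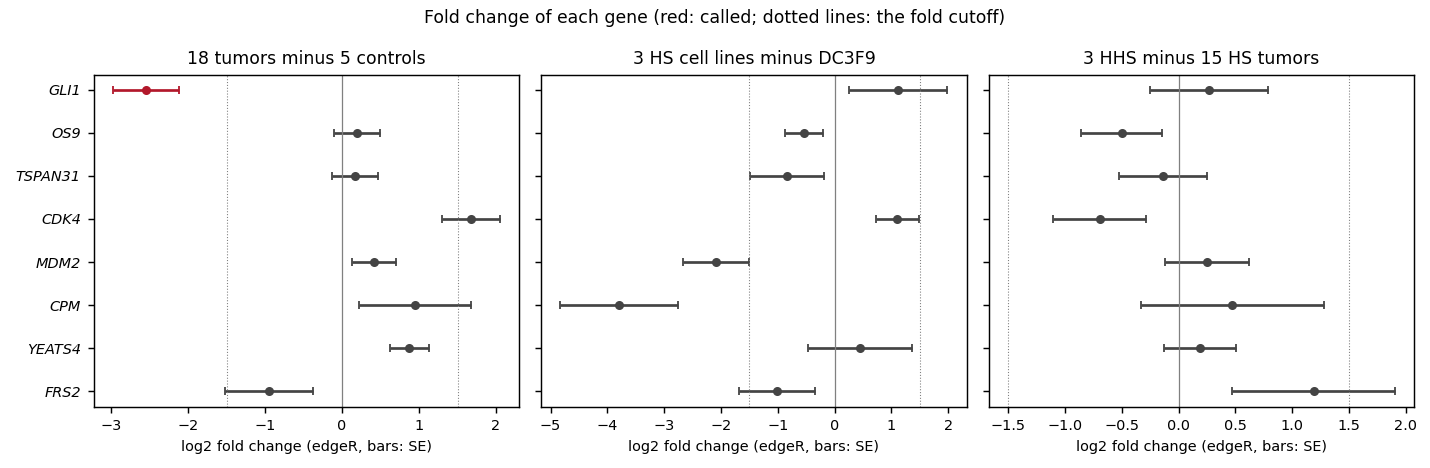
Log2FC of the 8 genes from edgeR in the 3 comparisons, with bars for the standard error, red for a called gene and dotted lines at the fold cutoff of 1.5. *GLI1* at -2.54 against controls is the only called value, and *CPM* at -3.79 against DC3F9 is the lowest.

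The 48 other genes of the region gave no calls by edgeR. DESeq2 called 6 of them against controls, *ARHGAP9*, *CYP27B1*, *METTL1*, *CTDSP2*, *AVPR1A* and *IRAK3*, beside 8.86% of all tested genes. In the cell lines it called 4 of them, beside 9.91% of all tested genes. Of the 44 that could be tested against the controls, 0 passed both cutoffs by edgeR, with 25 at an unadjusted p under 0.05, a level that 39.7% of all tested genes reached. At an adjusted p under 0.05 and any fold, 7 were higher and 11 lower, and over all tested genes 13% were higher and 14.2% lower. Their median log2FC was -0.20, against -0.0056 for all tested genes, and the median of the 8 genes was 0.31.

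Genes that work with MDM2, CDK4 or the Hedgehog pathway were read from a list of 10. Against controls *GTSE1*, which restrains p53 in the G2 phase, rose in the tumors (log2FC 3.21, SE 0.47, adjusted p = 5.12e-05, edgeR). It was the only one of the 10 called, and it is also 1 of the 9 proliferation genes summed above. Over all tested genes 0.865% were called higher, and 1 call among 10 is too few to read against that share. *MTBP*, an MDM2-binding protein, had a log2FC of 0.65 (adjusted p = 0.0388, edgeR), and *EP300*, the acetyltransferase that acts on p53, had -1.53 (adjusted p = 0.00963, edgeR). *PTCH1*, the Hedgehog receptor, had 0.33 (adjusted p = 0.686, edgeR). None of the 9 partners tested in the cell lines and none of the 10 tested between subtypes was called by edgeR, with 4 and 0 at an unadjusted p under 0.05.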

How the data were processed

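RNA levels were measured in 18 tumors, 6 controls and 4 cell libraries. Per the labels, the authors used cutadapt 3.7 for trimming, STAR 2.7.10a for alignment to CanFam3.1 and HTSeq 2.0.0 for counting, and they deposited raw counts for 32704 identifiers, without normalization. The strand option and annotation release are not given in the sources used here. Tumors and cells came in 2 tables, each fitted by itself. The study names a total RNA kit for tumors and controls and an mRNA kit for the cells.

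From the deposited counts, R 4.3.3 with edgeR 4.0.16 (TMM, filterByExpr, quasi-likelihood test, Benjamini-Hochberg over all genes tested) gave log2FC and adjusted p. limma 3.58.1 was loaded by edgeR. Called means an absolute log2FC above 1.5 with an adjusted p under 0.0005 (tumors against 5 controls) or under 0.05 (other comparisons). DESeq2 1.42.0 was an alternative. Log2 levels used a prior count of 2. Pairs were tested by 100000 two-sided permutations, with Python 3.11.15, numpy 2.4.6, scipy 1.17.1 and pandas 2.3.3, and figures used matplotlib 3.10.9. The fits were tested on simulated counts.

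A level of 3 counts was 0.0366 cpm in the smallest library and 0.0166 in the largest, for counting error only. Gene names came from the supplementary tables, which name 1117 identifiers. Gene order came from RefSeq's UU_Cfam_GSD_1.0 table, which is another build than CanFam3.1, so no coordinates are given. The genes and lists were chosen with earlier results of these data known. Named are all 8 genes in each comparison, region genes called or raised in the tumor with most, the 3 named genes most like *CDK4* and *MDM2*, and partners called plus up to 4 others. Leaving out HS14, HS27, HS29 and HS36 was chosen after seeing the data. Results of 1 region gene are not reported here by name.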

Additional observations from a re-analysis of the deposited data

Results flagged for a closer look

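In the 5 controls, *MDM2* in blood control 1 lay far below the others, with a gap to its neighbor of 0.822 of the whole range on the scale of log2 cpm with TMM factors. Without the factors the gap was 0.614 of the range in log2 cpm and 0.518 in cpm, under the critical value of 0.71 for 5 samples. *CPM* in the lung control lay far above the others, with a gap of 0.807 of the range on the first scale, 0.76 in log2 cpm without the factors and 0.926 in cpm. The 5 controls mix 3 tissues, 8 genes were looked at, and chance alone flags about 1 in 20 such groups.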

How the results depend on the processing

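Of the 8 genes, 1 was called against controls, and 2 were called with DESeq2 and with an adjusted p under 0.05, 0 against spleen and lung alone, 0 without the 4 tumors of low TMM factor, and 0 to 1 when each control was left out. Region genes called, 1 at first, numbered 8 with DESeq2, 2 with RLE size factors, 6 against blood alone, 13 at an adjusted p under 0.05, 0 without the 4 tumors and 0 to 3 without each control. In the cell lines DESeq2 called 1 of the 8 genes and 5 region genes. Over all tested genes DESeq2 called 8.86% against controls and 9.91% in the cell lines. Shares of all genes called under the other settings are not given, so these counts are not read as a result about the region. The most members raised in 1 tumor fell from 3 to 1 with a threshold of 2 log2 units and to 1 without TMM, and the most region genes fell from 13 to 3 with that threshold and to 11, in HS53, without TMM. The 1 pair past an adjusted p of 0.05 by Spearman became 0 without the 4 tumors. The sign turned for *OS9* against blood alone (-0.19) and without the 4 tumors (-0.025), for *TSPAN31* against spleen and lung (-0.37), for *YEATS4* in the lines without OD (-0.0081 to 0.84 over the lines left out), and between subtypes for *TSPAN31* without HS41 (-0.26 to 0.061 over the HHS tumors left out) and for *MDM2* (-0.021 to 0.44) and *CPM* (-0.99 to 0.92) without HS46. None of these 7 values was called, and their cause was not tested. None of the 8 genes or of the region genes was called between subtypes under any alternative run. No paired analysis was possible because the labels give no replicate numbers that groups share. Single control tissues, 1 dendritic library and 3 HHS tumors limit the precision, while depth does not, since the lowest member level, 0.160 cpm, is above the 3-count level.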
